A study of Homo sapiens with 21 samples.

Results

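The genes described here are 10 members of the S100 family, which encode small calcium-binding proteins: *S100A2*, *S100A4*, *S100A6*, *S100A7*, *S100A8*, *S100A9*, *S100A10*, *S100A11*, *S100A14* and *S100A16*. They were taken by their symbols from the 23201 genes of a normalized read count table, which lists all 10. RNA sequencing was done on HMLE, an established human mammary epithelial cell line that was immortalized with telomerase and the SV40 large T antigen, so every library shares both alterations and comes from 1 line. Untreated cells (d0) were compared with cells under TGFβ, an inducer of epithelial-to-mesenchymal transition (EMT), for 1 day (d1), 4 days (d4), 7 days (d7), 10 days (d10), 15 days (d15) or 20 days (d20), with 3 libraries at each of the 7 timepoints and 21 in all. All cells were plated at an equal density, and the labels give no TGFβ dose. Untreated cells were labelled for d0 alone, so TGFβ and time in culture cannot be told apart here. The study describes the libraries of a day as biological triplicates, and the tests measure the spread between them.

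S100 proteins carry a pair of EF-hand calcium-binding loops and mostly act as dimers. Binding of calcium opens a surface with which they hold partner proteins, among them annexins, myosin heavy chains and p53, and several are also released and bind receptors such as RAGE. S100A8 and S100A9 pair into calprotectin, which neutrophils and monocytes hold in large amounts and stressed epithelium can induce. S100A10 is the exception that stays in the open form without calcium and is held by annexin A2. Most of the family lies in a cluster on the long arm of chromosome 1, beside the genes of the cornified envelope of the skin.

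Each value is a read count divided by 1 size factor per library, called a normalized read count below. Library totals ran from 18847917 to 22667754 reads, and 1 read was worth 0.848 to 1.06 normalized read counts, so a gene near 10 rested on about 10 reads per library. The table gives each day's libraries in an order without replicate numbers, and they are named by that order. The third d7 library stood apart: its root mean square difference from the other d7 libraries was 0.457 and 0.472 on the log2 scale, against 0.214 to 0.243 for the other 19 pairs within a day. Calls of members past 2-fold that rest on it are given with and without it. Results of the further gene lists are given with it alone. Markers of mammary basal epithelium were present in untreated cells (*KRT5* 224349 ± 8441, SD, n = 3). All 5 EMT markers listed were higher than in untreated cells on every day, with *FN1*, which encodes fibronectin, at a log2 fold change of 6.99 ± 0.06 (SE, adjusted p = 1.1e-26, limma) at d20. Of all tested genes, 31.3% to 39.2% were higher, depending on the day. Rescaling every library to the same total moved the median change of all genes to between -0.20 and -0.14 on the log2 scale, and small changes of abundant members are given below relative to that shift. With equal totals 2436 genes were higher and 6692 lower at d1, in place of 4174 and 3804, so the balance of directions depends on the scaling.

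The members fell into abundant and scarce genes. Per kilobase of annotated exon at d0, *S100A2* stood highest at a mean of 30439.7 normalized read counts per kilobase, followed by *S100A6* at 17771, *S100A11* at 15757, *S100A14* at 12509, *S100A10* at 9298 and *S100A16* at 5629.9. *S100A9* came next at 708 per kilobase, then *S100A8* at 122 and *S100A4* at 87.3, and *S100A7* was last at 5.12. The length used is that of all annotated exons of a gene joined, and the order depends on it. Not divided by length, *S100A14* (mean 15974.1 at d0) stood above *S100A11* (10715). Of the 10, 9 had a mean of at least 10 over all libraries and were tested with the 13343 genes that passed this filter. *S100A7*, which encodes psoriasin of inflamed skin, was below the filter. RefSeq lists 10 pseudogenes named after *S100A11* and 2 named after *S100A7*, whose reads could be shared with these genes. The annotated spans of *S100A4* and *S100A8* overlap those of other S100 genes. Values of these members are uncertain in that respect.

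Against untreated cells, 8 of the 9 tested members differed at d1, d4, d7, d10 and d15, and 9 differed at d20, at an adjusted p under 0.05. At d1, 5 were higher, where 31.3% of all tested genes were higher, and 3 were lower, against 28.5% of all. At d4, 5 were higher (36.9% of all tested genes) and 3 lower (35.3%). The 3 lower at both days were *S100A4*, *S100A8* and *S100A9*, the least abundant of the tested members. At d7, 3 were higher (34.6% of all) and 5 lower (32.6%), and at d10 4 were higher (37.0%) and 4 lower (30.7%). The lowest balance was at d15, with 2 higher (39.2% of all) and 6 lower (37.3%). At d20, 5 were higher (32.5%) and 4 lower (30.2%). The median log2 fold change of the 9 lay between -0.50 at d15 and 0.20 at d1, while the median over all tested genes lay between 0.00 and 0.03.

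Changes of at least 2-fold were fewer. They were reached by 4 members at d1 (10.3% of all tested genes), 2 on d4 (14.7%), 2 at d7 (11.7%), 4 on d10 (14.3%), 2 at d15 (20.3%) and 3 on d20 (12.2%). *S100A8* and *S100A9* passed on all 6 days, always lower. *S100A4* passed at d1, d10 and d20, also lower. *S100A11* was the 1 member higher by at least 2-fold, at d1 and d10, and it was below 2-fold on both days with equal totals (log2 fold changes of 0.89 and 0.83) and with quantile normalization (0.82 and 0.88). *S100A14* at d20 passed 2-fold under both of these scalings (-1.15 and -1.21), and *S100A4* at d10 did not under quantile normalization (-0.87).

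**Figure D1:**
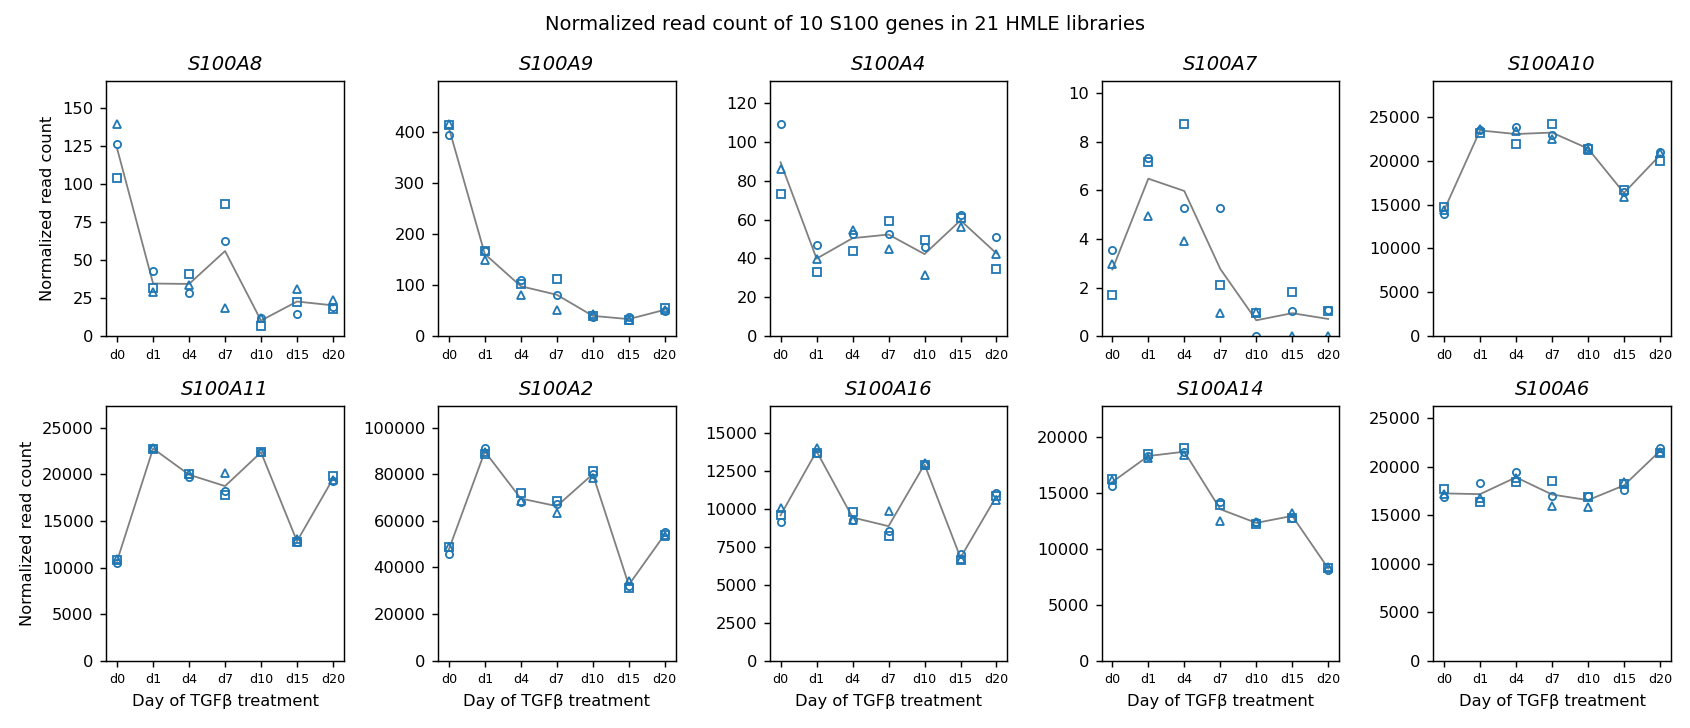
Normalized read count (vertical axes, each from 0) of the 10 members on each sampled day (horizontal axes, days evenly spaced). Circles, squares and triangles are the 3 libraries of a day in table order and the line joins their means. *S100A8*, *S100A9* and *S100A4* are highest in the untreated libraries, *S100A10* and *S100A11* are lowest there, and *S100A2* and *S100A16* are lowest at d15.

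*S100A9* and *S100A8*, the subunits of calprotectin, fell furthest. *S100A9* measured 394, 414 and 417 in the untreated libraries, 166, 166 and 149.8 at d1, 110.4, 101 and 81.3 on d4, 80.2, 112 and 51.2 at d7, 36.8, 38.9 and 43.0 on d10, 37.7, 30.8 and 31.1 at d15 and 48.8, 54.7 and 50.9 on d20. Every treated library was thus below every untreated one. The log2 fold change against d0 was -1.34 ± 0.18 (SE, adjusted p = 2.1e-06, limma) at d1, -3.34 ± 0.18 (SE, adjusted p = 8.4e-13, limma) at d10 and -3.59 ± 0.18 (SE, adjusted p = 1.3e-13, limma) at d15, the lowest day. In the order of its mean level *S100A9* ran d0, d1, d4, d7, d20, d10 and d15. Neighbours in this order differed except d4 from d7 (adjusted p = 0.145, limma), d20 from d10 (adjusted p = 0.103, limma) and d10 from d15 (adjusted p = 0.214, limma).

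*S100A8* measured 126, 103 and 139.5 in untreated cells, 42.9, 31.8 and 28.8 at d1 and 28.4, 40.9 and 33.3 at d4. It then measured 62.3, 86.5 and 18.6 at d7, 11.9, 6.80 and 11.7 on d10, 14.3, 22.6 and 31.1 at d15 and 19.1, 17.9 and 23.5 on d20. No treated library reached an untreated one, although the second d7 library came near. The log2 fold change was -1.82 ± 0.38 (SE, adjusted p = 3.3e-04, limma) at d1 and -3.50 ± 0.38 (SE, adjusted p = 5.2e-08, limma) at d10, where the libraries held 12, 7 and 12 reads. At d7 it was -1.37 ± 0.38 (SE, adjusted p = 0.00331, limma) with all libraries. Without the third d7 library it was -0.73 ± 0.27 (SE, adjusted p = 0.0152, limma), below a 2-fold change, which leaves *S100A9* as the 1 member past it on that day. The change from d4 to d7 depended on the same library: it was 0.45 ± 0.38 (SE, adjusted p = 0.332, limma) with it and 1.10 ± 0.27 (SE, adjusted p = 5.9e-04, limma) without it.

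The ratio of *S100A8* to *S100A9* was taken within each library, as a difference on the log2(value + 1) scale. It was -1.63, -1.99 and -1.57 in untreated cells and -1.93, -2.35 and -2.34 at d1. It was -0.36, -0.36 and -1.41 at d7, -1.55, -2.35 and -1.79 at d10 and -1.34, -0.43 and 0.00 at d15. The means were -1.73 ± 0.23 at d0, -2.21 ± 0.24 on d1, -0.71 ± 0.61 at d7, -1.90 ± 0.41 on d10 and -0.59 ± 0.69 at d15 (SD, n = 3). Both d7 and d15 had wide spreads, and the ratio was not tested.

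Both genes were lower than in untreated cells on every treated day, although their steps between days differed. The 250 bases before their start are shown, from RefSeq on GRCh38.p14, 5′ to 3′ on the strand of the gene. Capitals are matches to a searched motif. *S100A9* is at chr1:153357604-153357853 on the plus strand. *S100A8* is at chr1:153391189-153391438 on the minus strand, before the first of its 3 annotated starts. The files were made on hg19, so genes were matched by symbol and no coordinate was carried over.
S100A9: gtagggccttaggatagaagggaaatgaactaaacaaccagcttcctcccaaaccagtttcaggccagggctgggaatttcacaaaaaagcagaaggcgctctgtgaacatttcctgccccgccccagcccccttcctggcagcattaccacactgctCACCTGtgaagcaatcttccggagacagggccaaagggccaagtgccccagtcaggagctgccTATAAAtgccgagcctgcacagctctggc
S100A8: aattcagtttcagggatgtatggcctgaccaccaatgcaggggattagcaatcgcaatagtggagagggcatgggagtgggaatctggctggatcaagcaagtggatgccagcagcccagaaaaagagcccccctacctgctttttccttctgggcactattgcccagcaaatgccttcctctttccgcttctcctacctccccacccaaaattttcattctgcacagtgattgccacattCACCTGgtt
Both strands were searched for the AP-1 motif TGANTCA. They were also searched for the E-box CACCTG. Further motifs were TATAAA of the core promoter, and CAGAC, which SMAD proteins bind. The last was TTGCNNAA, of C/EBP factors. Both stretches held 1 CACCTG, at bases 92 to 87 before the *S100A9* start and at bases 9 to 4 before the first *S100A8* start. The *S100A9* stretch also held TATAAA at bases 29 to 24. *S100A8* had TATAAA at bases 29 to 24 before its second start, 115 bases further on, outside the stretch shown.

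Over the first starts of all 10 members, CACCTG was found in 6 (*S100A4*, *S100A7*, *S100A8*, *S100A9*, *S100A14* and *S100A16*), while 17.5% of the 35116 promoters in the table held it in the same window. TATAAA was found in 3 members, against 10.7% of all promoters. CAGAC was found in 4, against 38.0% of all. TGANTCA was found in *S100A2* alone, against 6.6% of all, and TTGCNNAA in *S100A11* alone, against 9.1%. The shares are over all promoters, of which a gene can have several: the 10 members have 14. Another start of *S100A2* held CACCTG and CAGAC, and the later starts of *S100A8* held TATAAA. The counts of members thus depend on the start taken. A match of letters is a description of the window, and occupancy of these stretches was not measured.

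Markers of leukocytes, the other main source of calprotectin, were given beside these genes. *PTPRC*, *TYROBP* and *CSF3R*, which define leukocytes, were at or under 3 reads in every library. The summed level of the 8 listed genes was 75.7 to 91.6 at d0 and between 29.6 and 64.5 in the treated libraries, and 3 of the 8 were tested. Of these *CD14*, a coreceptor for bacterial lipopolysaccharide that epithelium also makes, was lower on every day, and at d20 the log2 fold change was -2.90 ± 0.48 (SE, adjusted p = 2.0e-05, limma). *MPO* was higher at d1 and d10 and lower at d7 and d15. It measured 11.6, 13.6 and 12.9 in untreated cells and was at or under 3 reads in every d15 library, so no fold is given for it. *LYZ* did not pass the test on any day. In bulk RNA, fewer cells of a type and less RNA per cell cannot be told apart.

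*S100A4*, a partner of nonmuscle myosin that is used as a marker of fibroblasts and of EMT, was lower on every treated day. It measured 109, 72.9 and 86.1 in untreated cells, 47.1, 32.8 and 39.7 at d1, 45.8, 49.6 and 31.3 on d10, 62.2, 60.6 and 55.9 at d15 and 50.9, 34.7 and 42.1 on d20. Every treated library was below every untreated one. Its log2 fold change was -1.14 ± 0.19 (SE, adjusted p = 3.3e-05, limma) at d1, -0.56 ± 0.19 (SE, adjusted p = 0.0126, limma) at d15 and -1.05 ± 0.19 (SE, adjusted p = 7.4e-05, limma) at d20. Leaving out the first d0 library, the highest, ended the call at d15 (log2 fold change -0.41, adjusted p = 0.0865, limma). Treated days next to each other in the order of the means did not pass the test (adjusted p of 0.264 to 0.939, limma). In the order of time, *S100A4* was higher at d15 than at d10 (0.51 ± 0.19, SE, adjusted p = 0.0201, limma) and lower at d20 than at d15 (-0.49 ± 0.19, SE, adjusted p = 0.0273, limma). Neither step passed under quantile normalization (0.11, adjusted p = 0.592, and -0.32, adjusted p = 0.128, limma). Single libraries also ended these calls, such as leaving out the third d10 library for the rise (0.32, adjusted p = 0.152, limma). For the fall, leaving out the second d20 library did so (-0.36, adjusted p = 0.138, limma). At these 32 to 123 reads per library, *S100A4* was measured far less precisely than the abundant members.

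*S100A7* was close to the limit of detection. It measured 3.56, 1.70 and 2.97 in untreated cells, 7.32, 7.18 and 4.96 at d1, 5.26, 8.76 and 3.92 at d4 and 5.28, 2.09 and 0.930 at d7. From d10 on it was at 0 to 1.81, which is at most 2 reads a library. All 9 libraries of the last 3 days were thus at or under 3 reads, where a level is not detectable at this depth, and no fold is given.

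*S100A10* and *S100A11*, which pair with annexins at the membrane, were higher than in untreated cells on all 6 days. *S100A11*, a partner of annexin A1, measured 10465, 10763 and 10917 in untreated cells and 22790.0, 22705 and 22806 at d1. It measured 22351, 22367 and 22362 at d10 and 12732, 12689.7 and 13035 at d15. At d20 it measured 19328, 19842 and 19403. The d1 and d10 libraries were at more than 2-fold the untreated mean, and the d15 libraries lay closest to it without overlap. Fitted log2 fold changes were 1.09 ± 0.04 (SE, adjusted p = 3.4e-16, limma) at d1, 1.06 ± 0.04 (SE, adjusted p = 4.2e-16, limma) at d10 and 0.26 ± 0.04 (SE, adjusted p = 2.2e-06, limma) at d15. The d15 value was 0.099 both with equal totals (adjusted p = 0.025, limma) and with quantile normalization (adjusted p = 0.038, limma). The order of the means was d1, d10, d4, d20, d7, d15 and d0, in which d1 did not differ from d10 (adjusted p = 0.634, limma), d4 from d20 (adjusted p = 0.461, limma) or d20 from d7 (adjusted p = 0.161, limma).

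*S100A10* measured 13902, 14723 and 14415 in untreated cells, 23557, 23188 and 23617 at d1, 16479, 16642 and 15846 at d15 and 20989, 19957 and 20928 at d20. Its libraries at d4, d7 and d10 lay between 21212 and 24239. The treated libraries were all above the untreated ones, d15 least so. The log2 fold change was 0.71 ± 0.04 (SE, adjusted p = 1.1e-12, limma) at d1 and 0.52 ± 0.04 (SE, adjusted p = 1.5e-10, limma) at d20. At d15 it was 0.19 ± 0.04 (SE, adjusted p = 1.9e-04, limma), and this call was lost when libraries were rescaled to the same total (0.027, adjusted p = 0.524, limma) and under quantile normalization, where the value was -0.042 (adjusted p = 0.311, limma).

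The gene of its membrane partner, *ANXA2*, measured 29222, 30135 and 30651 in untreated cells and 54804, 54461 and 53080.3 at d1. It changed by 0.85 ± 0.04 (SE, adjusted p = 7.8e-14, limma) at d1, 0.92 ± 0.04 (SE, adjusted p = 1.5e-14, limma) on d10, 0.10 ± 0.04 (SE, adjusted p = 0.029, limma) at d15 and 0.88 ± 0.04 (SE, adjusted p = 2.9e-14, limma) on d20, on the log2 scale. The log2 ratio of *S100A10* to *ANXA2*, taken in the same way, was -1.06 ± 0.03 at d0, -1.21 ± 0.03 on d1, -1.13 ± 0.06 at d4 and -0.92 ± 0.14 on d7 (SD, n = 3). It was -1.41 ± 0.02 at d10, -1.43 ± 0.05 at d20 and -0.98 ± 0.02 at d15. The d10 and d20 libraries lay below all other libraries, and the third d7 library, at -1.07, was lower than the other d7 libraries at -0.91 and -0.79.

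**Figure D2:**
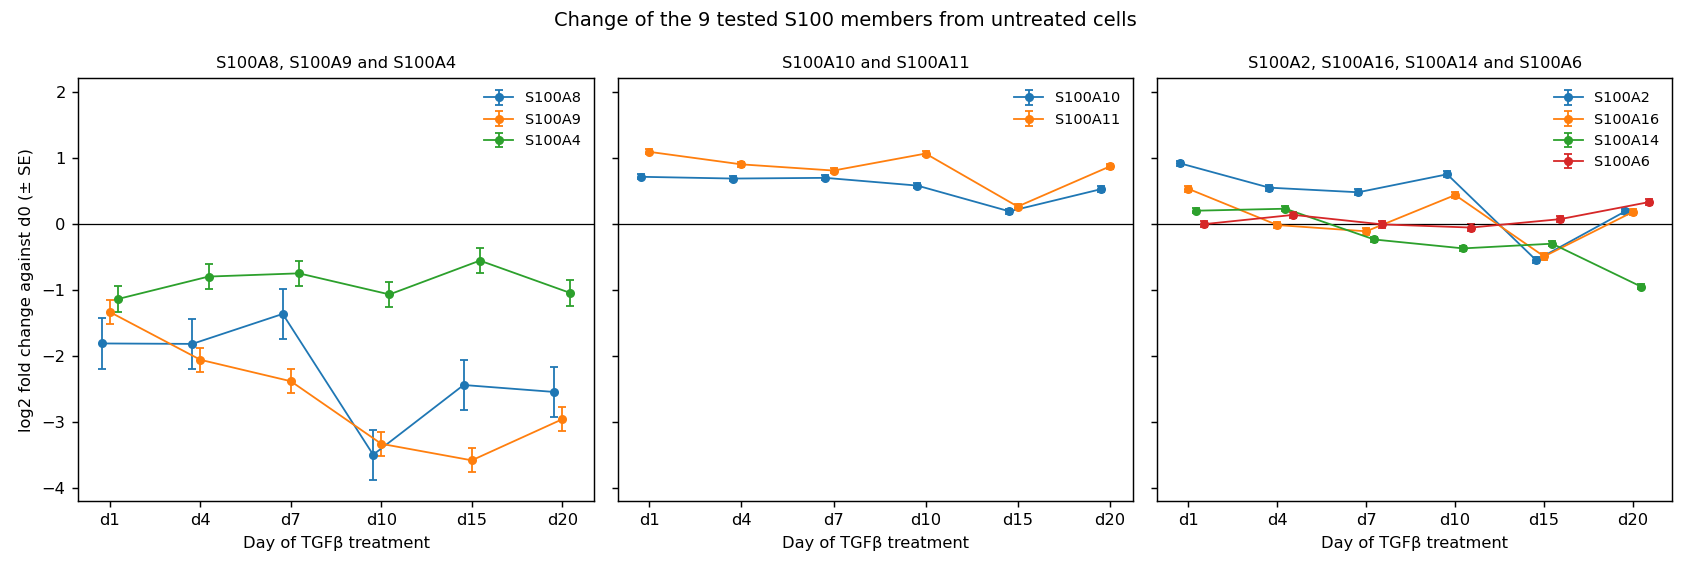
Log2 fold change against untreated cells (vertical axis, limma, error bars ± SE) of the 9 tested members on the 6 treated days (horizontal axis, evenly spaced). *S100A8* and *S100A9* reach -3.50 and -3.34 at d10, *S100A10* and *S100A11* stay above 0, and *S100A2*, *S100A16* and *S100A14* cross 0 between days.

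*S100A2*, which basal epithelial cells express under control of p53 family proteins, held the highest values. It measured 45559, 48609.7 and 48929 in untreated cells, 91170.5, 88555 and 89439.8 at d1, 80277, 81262 and 78564 on d10, 32094, 31394 and 34015 at d15 and 55096, 53812 and 53588 on d20. Its d4 and d7 libraries lay between 63268 and 72109. No other day overlapped d1 or d15, the highest and the lowest. Against d0 the log2 fold change was 0.91 ± 0.04 (SE, adjusted p = 9.3e-14, limma) at d1, 0.75 ± 0.04 (SE, adjusted p = 2.2e-12, limma) at d10 and -0.55 ± 0.04 (SE, adjusted p = 1.7e-10, limma) at d15. At d20 it was 0.18 ± 0.04 (SE, adjusted p = 9.3e-04, limma). That last value lost its sign under both other scalings, at -0.016 (adjusted p = 0.738, limma) with equal totals and -0.27 (adjusted p = 6.1e-06, limma) with quantile normalization. Quantile normalization also brought the changes at d4 and d7 to 0.039 and 0.015, those at d1 and d10 to 0.28 and 0.26, and that at d15 to -0.99. With equal totals they were 0.72 at d1, 0.52 at d10 and -0.71 at d15.

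*S100A16*, a widely expressed member, was also highest at d1 and lowest at d15. It measured 9104, 9563 and 10062 in untreated cells, 13679, 13691 and 13989 at d1, 12886, 12885 and 12988 on d10, 7024, 6613 and 6704 at d15 and 11062, 10853 and 10566 on d20. Its d1 and d10 libraries were above all others and its d15 libraries below all others. In the fit, *S100A16* changed by a log2 value of 0.53 ± 0.05 (SE, adjusted p = 1.3e-08, limma) at d1, 0.43 ± 0.05 (SE, adjusted p = 1.7e-07, limma) at d10 and -0.50 ± 0.05 (SE, adjusted p = 1.3e-08, limma) at d15. It measured 9260.0, 9794 and 9233 at d4 and 8513, 8199.8 and 9848 at d7, and these libraries overlapped the untreated ones. At d4 the change was -0.02 ± 0.05 (SE, adjusted p = 0.714, limma), but -0.22 (adjusted p = 7.1e-04, limma) with equal totals. The d7 change of -0.12 ± 0.05 (SE, adjusted p = 0.0486, limma) did not pass in DESeq2 (adjusted p = 0.0516). It was -0.31 with equal totals (adjusted p = 2.0e-05, limma), -0.24 with quantile normalization (adjusted p = 6.5e-05, limma) and -0.20 without the third d7 library (adjusted p = 3.7e-06, limma). The d20 change of 0.18 ± 0.05 (SE, adjusted p = 0.00454, limma) did not pass with equal totals (-0.022, adjusted p = 0.717, limma) or quantile normalization (-0.030, adjusted p = 0.57, limma), where it changed sign.

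*S100A14*, a member of epithelia, fell late. It measured 15613, 16204 and 16105 in untreated cells, 18298, 18463 and 18124 at d1, 18634, 18994 and 18407 on d4, 14161, 13932 and 12522 at d7, 12405, 12173 and 12362 on d10, 12796, 12779 and 13241 at d15 and 8102, 8255 and 8375 on d20. The first treated days lay above the untreated libraries, the later ones below, and d20 below everything else. On the log2 scale the change was 0.23 ± 0.04 (SE, adjusted p = 1.9e-05, limma) at d4, -0.38 ± 0.04 (SE, adjusted p = 1.9e-08, limma) at d10 and -0.95 ± 0.04 (SE, adjusted p = 3.3e-15, limma) at d20. The early rise did not pass with libraries at equal totals, where d1 was at 0.00 (adjusted p = 0.954, limma) and d4 at 0.03 (adjusted p = 0.47, limma), and d1 turned to -0.072 under quantile normalization (adjusted p = 0.0857, limma).

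*S100A6*, or calcyclin, which binds the ubiquitin-pathway protein encoded by *CACYBP*, moved least. It measured 16901, 17707 and 17159 in untreated cells and 21923, 21440.5 and 21525 at d20. Between them its libraries ran from 15832 to 19454. Only the d20 libraries were all above every other library. The log2 fold change was 0.33 ± 0.05 (SE, adjusted p = 5.3e-06, limma) at d20 and 0.13 ± 0.05 (SE, adjusted p = 0.0188, limma) at d4, and neither passed under quantile normalization (0.08, adjusted p = 0.128, and -0.10, adjusted p = 0.0572, limma). At d1, d7, d10 and d15 it lay between -0.06 and 0.07 and did not pass. With equal totals d1, d7 and d10 passed, at -0.20, -0.20 and -0.29, and with quantile normalization all 4 of these days passed, at -0.32, -0.24, -0.34 and -0.20 in order of time.

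Comparisons of consecutive sampled days showed where the members moved. From d1 to d4 none changed by 2-fold (6.17% of all tested genes did), while 1 was higher (32.9% of all) and 4 were lower (32.0%), which are the 5 with an unadjusted p under 0.05. From d4 to d7 none changed by 2-fold (3.78% of all), 0 were higher (25.5% of all) and 3 were lower (25.5%), which are the 3 with an unadjusted p under 0.05. For both steps edgeR and DESeq2 also called 0 past 2-fold. Without the third d7 library *S100A8* was higher from d4 to d7, past 2-fold, and *S100A16* was lower (-0.17, adjusted p = 3.9e-05, limma). In limma's fit of all groups *S100A6*, *S100A11* and *S100A14* were lower with or without that library. *S100A11* (-0.09, adjusted p = 0.0426, limma) did not pass in edgeR (adjusted p = 0.085) or with equal totals (adjusted p = 0.0667, limma). *S100A6* (-0.14, adjusted p = 0.017, limma) did not pass in the fit of 2 groups (adjusted p = 0.146, limma). From d7 to d10 *S100A8* changed by 2-fold (12.7% of all), at -2.13 ± 0.38 (SE, adjusted p = 3.9e-05, limma), and *S100A9* reached -0.95 ± 0.18 (SE, adjusted p = 9.8e-05, limma), which was past 2-fold in edgeR and DESeq2 and without the third d7 library.

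From d10 to d15, 2 members changed by 2-fold, where 22.2% of all tested genes did. *S100A2* fell by 1.30 ± 0.04 on the log2 scale (SE, adjusted p = 1.9e-16, limma). *S100A8* rose by 1.06 ± 0.38 (SE, adjusted p = 0.0152, limma), a call that ended without the second d10 library (0.82, adjusted p = 0.0819, limma) or the third d15 library (0.81, adjusted p = 0.0865, limma). *S100A16*, *S100A11* and *S100A10* fell in the same step, with log2 changes of -0.93, -0.80 and -0.39. From d15 to d20, 6 members were higher, where 37.7% of all tested genes were, and 2 were lower, against 36.3% of all. The largest rise was that of *S100A2* at 0.74 ± 0.04 (SE, adjusted p = 3.0e-12, limma), followed by *S100A16* at 0.68 ± 0.05 (SE, adjusted p = 1.4e-10, limma). *S100A14* moved down, at -0.65 ± 0.04 (SE, adjusted p = 2.7e-12, limma). The d15 level of *S100A2*, *S100A10*, *S100A11* and *S100A16* was thus below that of the sampled days on both sides.

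Together the 10 members took 0.61%, 0.64% and 0.63% of the library totals in untreated cells. The mean was 0.630% ± 0.014 at d0, 0.880% ± 0.009 on d1, 0.756% ± 0.008 at d4, 0.703% ± 0.015 on d7 and 0.768% ± 0.008 at d10 (SD, n = 3). It was lowest at d15, at 0.484% ± 0.009, and 0.638% ± 0.008 at d20, close to the untreated share. *S100A2* alone made 41.0% ± 0.394 of this sum at d0, 48.4% ± 0.086 at d1 and 32.6% ± 0.834 at d15.

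**Figure D3:**
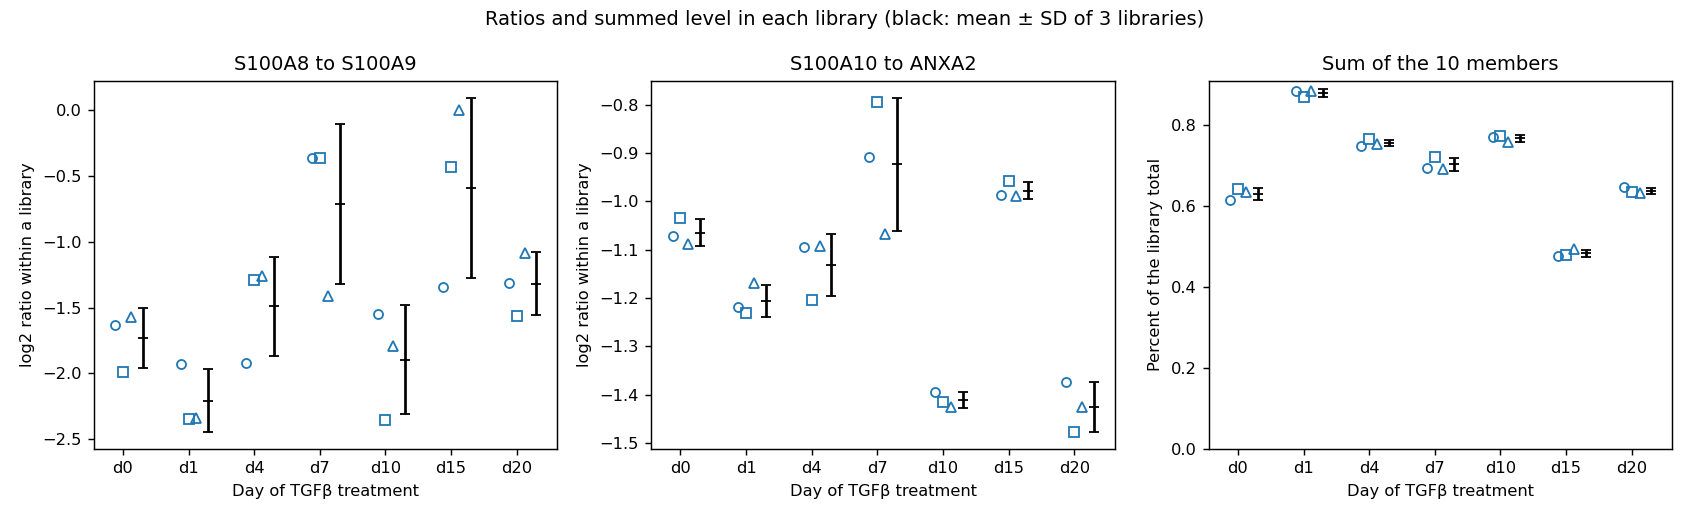
Log2 ratio of *S100A8* to *S100A9* and of *S100A10* to *ANXA2* within each library, and the summed level of the 10 members as a percent of the library total (vertical axes), by day (horizontal axes, evenly spaced). Open symbols are the 3 libraries of a day and black bars the mean ± SD. The *S100A10* to *ANXA2* ratio is lowest at d10 and d20, and the share is highest at d1 (0.880%) and lowest at d15 (0.484%).

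Among the 11 other S100 genes listed, 3 passed the filter. Values with an SE below are log2 fold changes against d0. *S100A13*, which takes part in release of proteins without a signal peptide, measured 1504, 1599.7 and 1573 in untreated cells and 2126, 2168 and 2152 at d20. It was higher on 5 days, with 0.46 ± 0.05 (SE, adjusted p = 1.4e-08, limma) at d20, and lower at d15 (-0.11 ± 0.05, SE, adjusted p = 0.0351, limma). Its smallest rise, 0.17 at d7, was no larger than the shift that rescaling to equal totals can make. *S100A3*, a member of hair follicles, measured 112, 118 and 125 in untreated cells and was at 0.40 ± 0.12 (SE, adjusted p = 0.00589, limma) at d10 and -0.47 ± 0.12 (SE, adjusted p = 0.0016, limma) at d15. The annotated span of *S100A3* lies inside that of *S100A4* on the same strand, so its values are uncertain in that respect. *S100A1*, best known in heart muscle, measured 24.9, 28.0 and 21.8 in untreated cells and 12.7, 8.42 and 8.81 at d20 and was lower on all 6 days, where it fell by 1.25 ± 0.21 on the log2 scale at d20 (SE, adjusted p = 1.9e-05, limma). *S100A7A*, *S100A7L2*, *S100A12*, *S100B*, *S100G* and *S100Z* were at or under 3 reads in every library, so a change in them was not detectable at this depth.

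Set in their order along chromosome 1, the tested genes did not move as a block. *S100A9* and *S100A8* are neighbours among the tested genes and both fell, as did *S100A4* nearby. Between *S100A8* and *S100A4* lies *S100A6*, which in the deposited scaling passed as lower on no day and was at 0.33 at d20. *S100A10* and *S100A11*, at one end of the order, were higher on every day. *S100A3* and *S100A2*, between *S100A4* and *S100A16*, were both higher at d1 and d10 and both lower at d15. At the other end *S100A13* and *S100A1*, whose gene bodies overlap on opposite strands, differed at d20, at 0.46 and -1.25 on the log2 scale. Whether the counting used strand is not given in the sources used here, so reads of this pair may not have been told apart.

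**Figure D4:**
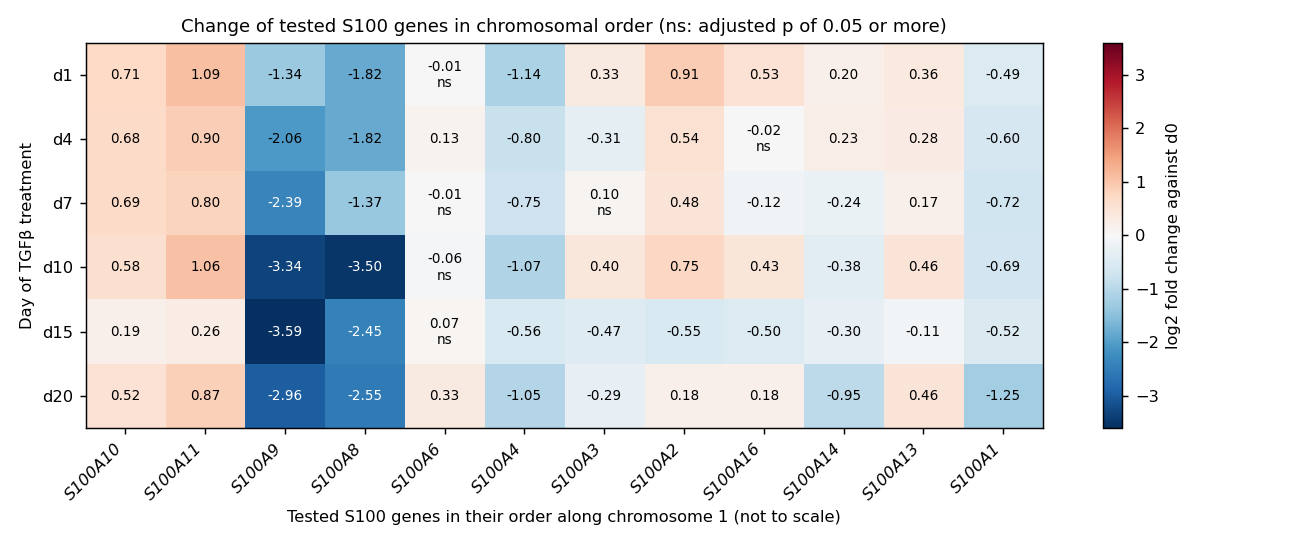
Log2 fold change against d0 (colour and number) of the 12 tested S100 genes of chromosome 1, in chromosomal order (horizontal axis, not to scale) on each treated day (vertical axis). Cells marked ns had an adjusted p of 0.05 or more in limma's test. *S100A9* and *S100A8* form the darkest columns, at -3.59 (d15) and -3.50 (d10).

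Of 18 genes for partners and receptors of S100 proteins, 17 were tested, and 9 to 11 were higher and 4 to 6 lower on each day, where 31.3% to 39.2% of all tested genes were higher and 28.5% to 37.3% lower. *ANXA6*, a membrane-binding annexin, measured 382, 393 and 368 in untreated cells and 2556, 2474 and 2597 at d20 (2.74 ± 0.07, SE, adjusted p = 2.0e-18, limma). *MYH9*, the nonmuscle myosin heavy chain to which S100A4 binds, was higher on every day, with 1.29 ± 0.08 (SE, adjusted p = 6.8e-12, limma) at d20. *PLAU*, the urokinase that activates plasminogen, was higher by 2.63 ± 0.05 (SE, adjusted p = 2.6e-20, limma) at d4. *PLAT*, the tissue plasminogen activator whose substrate plasminogen is held at the surface by S100A10, went the other way, from 287, 275 and 317 in untreated cells to 26.5, 13.6 and 24.9 at d15 (-3.75 ± 0.22, SE, adjusted p = 1.2e-12, limma). The gene of RAGE, *AGER*, was lower at d1, d7, d10 and d20, with -0.79 ± 0.13 (SE, adjusted p = 3.3e-05, limma) at d20, and that of the receptor TLR4 was below the filter.

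Genes of the cornified envelope, several of which lie in the same chromosomal region and accompany calprotectin in differentiating keratinocytes, were mostly lower. Of 16 listed, 11 were tested, with 9 lower and 1 higher at d1, 10 lower and 1 higher at d4, and 8 lower and 1 higher at d20. Of all tested genes, 28.5%, 35.3% and 30.2% were lower on these days and 31.3%, 36.9% and 32.5% higher. *SPRR1A*, a cross-linked envelope precursor, measured 244, 243 and 239 in untreated cells and 2.12, 4.21 and 5.88 at d20 (-5.66 ± 0.35, SE, adjusted p = 7.6e-12, limma). *KRT13*, a keratin of wet epithelia, measured 540.2, 602 and 604 in untreated cells and 5.97, 1.94 and 3.91 at d10, with a change of -6.97 ± 0.50 (SE, adjusted p = 7.3e-11, limma). *SBSN* was at -5.03 ± 0.64 (SE, adjusted p = 6.5e-07, limma) at d20, where its libraries held 1 to 5 reads. *SPRR2D* measured 44.5, 64.5 and 42.5 in untreated cells and was at or under 3 reads in every d15 library, so no fold is given for it. The 1 gene higher on every day was *IVL*, which encodes involucrin and was named after its values were seen: it measured 89.9, 113 and 125 in untreated cells and 1275, 1361 and 1359 at d1 (3.61 ± 0.12, SE, adjusted p = 3.2e-16, limma). The summed level of the list was 5948 to 6223 at d0 and 3297 to 3404 at d15. Its median log2 fold change was -1.02 at d1 and -3.67 at d15, against 0.00 and 0.01 for all tested genes.

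The fused-type S100 genes, large proteins with an S100 domain in front of repeats, were mostly below the filter. Of 7 listed, 2 passed it. *FLG* (filaggrin) measured 61.4, 51.7 and 51.5 in untreated cells, 23.1, 17.5 and 29.4 at d4 and 99.6, 92.6 and 104 at d20. It was lower at d4 (-1.22 ± 0.17, SE, adjusted p = 1.2e-06, limma) and higher at d10 (0.54 ± 0.17, SE, adjusted p = 0.00694, limma) and d20 (0.84 ± 0.17, SE, adjusted p = 1.8e-04, limma). *TCHH* was at 0.68 ± 0.27 (SE, adjusted p = 0.0334, limma) at d1. *CRNN*, *RPTN* and *TCHHL1* were at or under 3 reads in every library. Of 6 mammary basal epithelial genes, 0 to 3 were higher and 1 to 5 lower depending on the day, with 3 higher and 1 lower at d7, 3 and 3 at d15, and 1 and 4 at d20. Of all tested genes, 34.6%, 39.2% and 32.5% were higher on these 3 days and 32.6%, 37.3% and 30.2% lower. The d7 counts include the third d7 library, where *KRT17* measured 55169, against 184224 and 169632 in the other d7 libraries. *EPCAM* was at -2.84 ± 0.08 (SE, adjusted p = 2.2e-17, limma) at d7, *CDH1* at -1.33 ± 0.06 (SE, adjusted p = 1.7e-14, limma) on d20, *KRT5* at -1.15 ± 0.15 (SE, adjusted p = 6.2e-07, limma) at d10 and *KRT17* at 2.25 ± 0.25 (SE, adjusted p = 4.9e-08, limma) on d15. Of the EMT markers, *VIM* was at 3.62 ± 0.08 (SE, adjusted p = 4.3e-20, limma) at d20, *CDH2* at 6.05 ± 0.16 (SE, adjusted p = 1.6e-18, limma) and *ZEB1* at 6.02 ± 0.19 (SE, adjusted p = 5.1e-17, limma). Of 4 endothelial genes 1 was tested, *PECAM1*, which was at -2.10 ± 0.41 (SE, adjusted p = 9.7e-05, limma) at d15, while *CDH5* and *CLDN5* were at or under 3 reads throughout. The summed level of these 4 was 47.2 to 54.3 at d0 and 10.4 to 27.4 in the treated libraries. The part of other cell types in the changes of the members was not tested.

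For each member that changed by at least 2-fold, the 2 other tested genes with the smallest root mean square difference in log2 fold change over the 6 treated days were taken. For *S100A11* the nearest was *PXN*, which encodes the adhesion protein paxillin, at a difference of 0.0963. For *S100A4* they were *ZNF233* (0.15) and *C8orf55* (0.154). For *S100A8* they were *TSPAN7* (0.27), a tetraspanin, and *ARHGEF19* (0.285). For *S100A9* they were *MAL2* (0.377), a protein of apical transport in epithelia, and *MACC1* (0.437). *MAL2* was at -1.30 at d1, -3.71 at d10 and -3.48 at d20 on the log2 scale, where *S100A9* was at -1.34, -3.34 and -2.96. Likeness here is over 6 days that share the untreated libraries and is a description.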

How the data were processed

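RNA was measured by sequencing in 21 HMLE libraries. Per the submitters' processing notes, the authors used STAR 2.7 and Salmon 1.4 with hg19, and they deposited 1 table of normalized read counts as signal (reads divided by 1 size factor per library, in steps of 1 read; 100% of values were whole reads within 0.1 read). No per-sample column was left out (0). The filter (mean of at least 10 over all libraries) left 13343 genes, which were tested with limma 3.58.1 (trend) on log2(value + 1), all 7 groups in 1 fit, with Benjamini-Hochberg adjustment over all of them per comparison. Fold changes are on this log2(value + 1) scale and are understated for low genes. Alternatives were a pseudocount of 10, no filter, equal totals, quantile normalization, fits of 2 groups, edgeR 4.0.16 and DESeq2 1.42.0 on recovered reads, and leaving out each library. Scripts were tested on simulated data.

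Groups came from the treatment labels and columns from their group names. The members and gene lists were chosen with earlier results of these data known. All members were named, with every other S100 gene past the filter, up to 4 genes of each list with the largest change, and for members past 2-fold the 2 genes of most similar change, of which 1 is not reported here. Gene lengths and order came from GENCODE v29, promoters from RefSeq GRCh38.p14, both by symbol. Protein sequences were not analysed here.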

Additional observations from a re-analysis of the deposited data

Results flagged for a closer look

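Listed here are members higher than d0 on 1 treated day and lower on another, where those days also differed in limma's test. Each call was required at an adjusted p under 0.05 across all genes, and 3 members met this. The share of all tested genes meeting the same rule was not computed, so this count is a description only. Values for single days are log2 fold changes against d0. *S100A2* was at 0.91 at d1 and -0.55 at d15, a log2 difference of 1.47 ± 0.04 (SE, adjusted p = 3.7e-17, limma). *S100A14* was at 0.23 at d4 and -0.95 at d20, a log2 difference of 1.18 ± 0.04 (SE, adjusted p = 1.3e-15, limma). Its d4 value did not pass with equal totals (0.03, adjusted p = 0.47, limma) or quantile normalization (0.02, adjusted p = 0.647, limma). The sign change of *S100A14* thus rests on the deposited scaling, while its d20 value was also lower under both other scalings (-1.15 and -1.21). *S100A16* was at 0.53 at d1 and -0.50 at d15, a log2 difference of 1.02 ± 0.05 (SE, adjusted p = 1.4e-13, limma). The days were picked as those of the largest difference and passing was required for listing, so these p-values add no support. In all 3 genes, every library of the first day lay above every library of the second. That is likely given the same choice of days and adds no support either.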

How the results depend on the processing

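Of 79 member results past the threshold (49 against d0 and the rest between consecutive days), 58 kept direction and threshold under every alternative run and 68 kept them without each single library. Scaling mattered most. Of the members above untreated cells, equal totals left 3 of 5 at d4, 1 of 2 at d15 and 3 of 5 at d20, and quantile normalization left 2, 1 and 2. Quantile normalization also left 2 of the 4 members changed by 2-fold at d10 and 1 of 2 from d10 to d15, as did a pseudocount of 10 (1) for the latter. Log2 changes that turned sign with equal totals were *S100A6* at d4 (-0.065) and d15 (-0.092), *S100A2* at d20 (-0.016) and *S100A16* at d20 (-0.022). Those that turned under quantile normalization were *S100A14* at d1 (-0.072), *S100A6* at d4 (-0.10) and d15 (-0.20), *S100A10* at d15 (-0.042), *S100A2* at d20 (-0.27) and *S100A16* at d20 (-0.030). From d7 to d10, edgeR and DESeq2 each called 2 members past 2-fold instead of 1. Leaving the third d7 library out of the whole fit, a choice made after the data were seen, gave 1 member instead of 2 at d7 against d0, 1 instead of 0 from d4 to d7 and 2 instead of 1 from d7 to d10, and turned *S100A6* at d7 to 0.040. The cause was not tested.

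Without 1 library at a time, members past 2-fold ranged from 1 to 2 at d7, 0 to 1 from d4 to d7, 1 to 2 from d7 to d10 and 1 to 2 from d10 to d15. *S100A6* ranged from -0.054 to 0.025 at d1 and -0.069 to 0.040 at d7, and *S100A16* from -0.058 to 0.015 at d4. The log2 change of the summed share ranged from 0.46 to 0.50 at d1, 0.24 to 0.28 at d4, 0.27 to 0.30 at d10 and -0.0002 to 0.032 at d20. As a sum of normalized values in place of a share, that change was 0.67 at d1, 0.46 on d4, 0.35 at d7, 0.51 on d10, -0.22 at d15 and 0.22 on d20. With a pseudocount of 10 the log2 ratio of *S100A8* to *S100A9* was -1.95 at d1, -1.31 at d10 and -1.03 at d20. No paired analysis was possible because the table names its libraries by day and not by replicate. Depth limits *S100A7*, *S100A8* and *S100A4*, at up to 142 reads a library.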
